A study of Gallus gallus with 24 samples.

Results

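The livers of 6 Sal-exposed and 6 control chickens were compared by RNA-seq, with each library assigned to its group by its title. These 12 libraries are part of 24 that were analysed here, and the other 12 come from the hearts of birds of the same groups. All birds were female broiler chickens bought as chicks from a commercial hatchery and kept on litter in pens on Sal-free feed until the end of the third week. The Sal-exposed group then received feed with 10.5 mg/kg Sal, which was estimated to give 0.9 mg per kg of body weight daily, for 2 weeks, and the control group stayed on Sal-free feed. Livers of both groups were taken in week 5. How the birds of each group were spread over the pens is not given in the sources used here, so a difference between pens and a difference between diets cannot be told apart. Apart from the tissue of origin, the labels do not separate the cells of the liver, and fewer cells of a type and less RNA per cell cannot be told apart in such samples.

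Salinomycin (Sal) is a polyether ionophore, a molecule that carries sodium and potassium ions across cell membranes, and it is fed to poultry against coccidia. The liver takes up feed compounds and oxidises them, mainly with cytochrome P450 enzymes, and it also conjugates them with other enzymes. Its hepatocytes also make most proteins of the blood plasma, which pass through the endoplasmic reticulum (ER) and the Golgi on their way out, and they run fatty acid oxidation, lipid synthesis and amino acid breakdown. Bile duct cells, endothelial cells, stellate cells, Kupffer cells and blood cells make up the rest of the organ.

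The counts on genes summed to between 31.4M and 41.2M per library (M, 1e6 counts), and no difference in depth between the groups was detected (p = 0.831 by an exact permutation test, two-sided). The defining genes of hepatocytes were present in all 12 livers, with a summed level of the 18 hepatocyte markers between 112516 and 301689 CPM (counts scaled to the library total), whereas none of the 3 kidney markers in the table passed the filter on low counts. Of the 8 heart markers 6 passed that filter, and their summed level was 164 CPM in control liver 5 and 52.8 CPM in control liver 4, against 1.27 to 18.5 CPM in the other 10 livers. On the first component of a principal component analysis of all genes tested, which held 29.6% of the variance, Sal-exposed liver 2 (-1.40) lay beside control liver 2 (-0.19), and control liver 6 (114) lay far from the other 5 controls (-0.19 to 64.1). Control liver 6 also had the fewest genes with at least 1 count, 12355 against 13311 to 14664 in the other 11 livers. The number of such genes was higher in the Sal-exposed group, 14553 with an SD of 132 against 13866 with an SD of 863 (p = 0.0238 by a two-sided exact permutation test, and between 0.00433 and 0.0476 with 1 library left out). The share of the 20 genes with the most counts averaged 33.5% with an SD of 8.68 among the 6 Sal-exposed livers. It averaged 44.4% with an SD of 8.11 among the 6 controls (p = 0.0563 by an exact permutation test, two-sided). The difference passed without Sal-exposed liver 4 (p = 0.013 by the same exact test) or control liver 2 (p = 0.0216 by the same exact test). Sal-exposed liver 4 had 30.4% of its counts on mitochondrial genes, where the other 5 Sal-exposed livers had 6.92% to 10.9% and the controls 5.21% to 26.5%. Counts over all genes are given with and without these 4 libraries.

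Levels are given as CPM after trimmed mean (TMM) scaling, and differences as log2 fold changes (log2FC) of Sal-exposed over control livers from edgeR's quasi-likelihood test, with the Benjamini-Hochberg adjusted p (p-adj) over all genes tested. A gene is said to have risen, fallen or passed where its p-adj did not exceed 0.05, and to be upregulated, downregulated or a differentially expressed (DE) gene where its log2FC was also at least 1 in size. Of 13587 genes tested, 454 were upregulated (3.34%) and 498 were downregulated (3.67%) in the Sal-exposed livers. With upper-quartile scaling instead of TMM the split was 558 to 404, while the median log2FC over all genes moved only from -0.01 to 0.05. At p-adj alone 1028 genes were higher (7.57%) and 1065 were lower (7.84%), and these are the shares against which the gene lists below are read. Every Sal-exposed liver lay above every control liver in 461 genes (3.39%) and below every control liver in 317 (2.33%), among them 169 of the upregulated and 152 of the downregulated genes. In 382 of the 454 upregulated genes the lowest Sal-exposed value was that of Sal-exposed liver 2, and without this bird 690 genes were upregulated and 606 downregulated. The numbers were 553 and 521 without control liver 6, 387 and 550 without Sal-exposed liver 4, and 564 and 631 without control liver 2. Both counts were lowest without Sal-exposed liver 6 (252 and 252) or Sal-exposed liver 5 (317 and 290). Of the 331 genes named below or examined with them that passed p-adj, 157 passed in each of 12 fits with 1 library left out, and for the others the number of these fits in which they passed is given beside their log2FC (as 9 of 12), or the libraries whose omission ended the call are named. Leaving out Sal-exposed liver 6 ended the most of these calls, 167, and leaving out Sal-exposed liver 2 or control liver 2 the fewest, 17 each. On the CPM scale, which is not corrected for gene length, the downregulated genes had a median of 15.8 over the 12 livers and the upregulated genes one of 7.47. The downregulated genes together held on average 79375 CPM in the Sal-exposed and 232563.0 CPM in the control livers. This sum is lower by the choice of its genes, and it includes rRNA genes on chromosome 16. It also includes ENSGALG00010002366, whose span there holds rRNA genes. That gene had a mean of 2363 CPM in the Sal-exposed and 19165 CPM in the control livers.

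**Figure D1:**
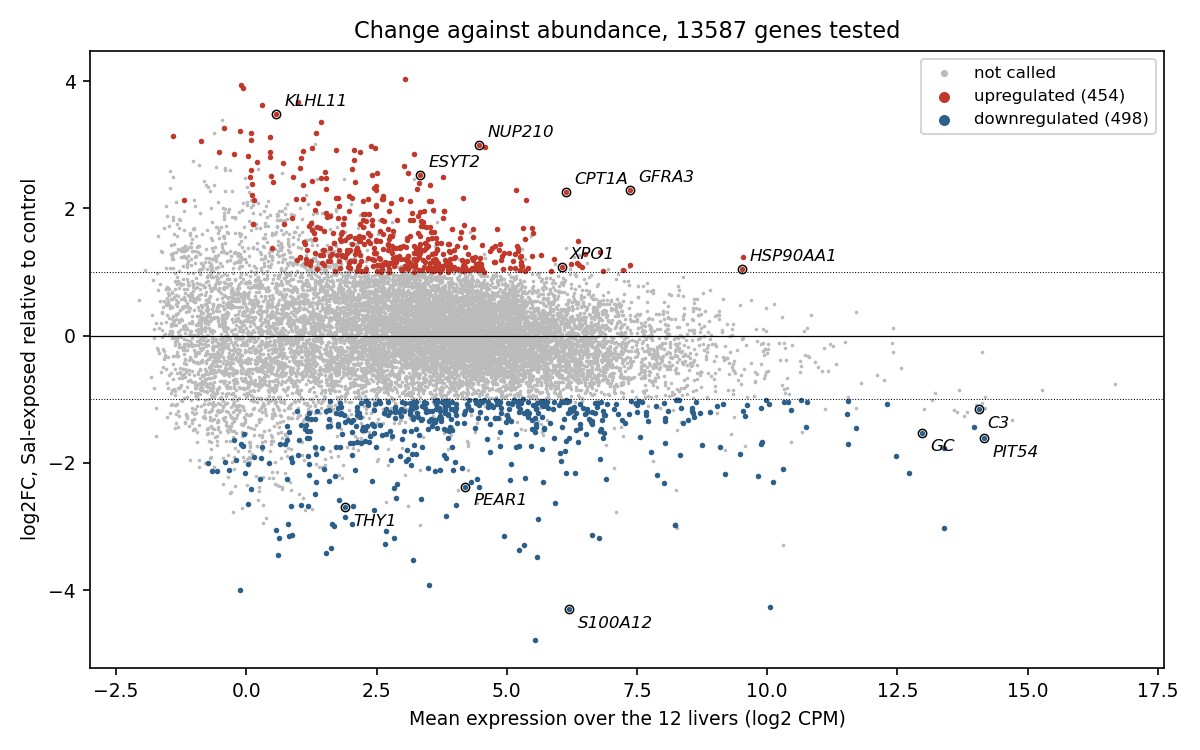
Mean expression of each of the 13587 genes over the 12 livers (horizontal, log2 CPM) against its log2FC in Sal-exposed relative to control livers (vertical), with the 454 upregulated genes in red, the 498 downregulated genes in blue and the other genes in grey. C3, GC and PIT54, at the right end of the abundance axis, lie below the dotted line at -1, whereas HSP90AA1 lies above the dotted line at 1.

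Among downregulated genes with a symbol the lowest p belonged to *PEAR1*, a receptor of endothelial cells and thrombocytes (chromosome 25, 1087676 to 1096825 on GRCg7b), which ranged from 3.902 to 6.9998 CPM in the Sal-exposed group (median 6.29) and from 22.2 to 45.3 CPM in the control group (median 29.3) (log2FC -2.37, SE 0.22, edgeR p-adj = 0.000243). *TJP3*, a scaffold protein of tight junctions, had a median of 16.3 CPM in Sal-exposed livers and 54.1 CPM in controls (log2FC -1.76, SE 0.20, edgeR p-adj = 0.00124). *KDELR3*, a receptor that returns escaped chaperones from the Golgi to the ER, had a median of 4.46 CPM in Sal-exposed livers (2.66 to 6.26), against 23.7 CPM in control livers (17.3 to 43.3) (log2FC -2.66, SE 0.30, edgeR p-adj = 0.00124). The groups did not overlap in any of these 3 genes, and each stayed downregulated with any of the 12 libraries left out. *TJP3* overlaps *PIP5K1C* and *KDELR3* overlaps *DDX17* in the annotation, and without strand information reads of such neighbours cannot be told apart. The next 7 downregulated genes with a symbol by p were *EGFL7* (-1.07), a factor secreted by endothelial cells, *PALM* (-1.89), *CROCC* (-1.31), *EHD2* (-2.01), which coats caveolae, *INHBC* (-2.32), the liver's inhibin beta C chain, *CFTII* (-1.46) and *GM2A* (-1.69), a lysosomal lipid carrier, each with its log2FC in brackets and without overlap between the groups. *EGFL7* overlaps *AGPAT2*, *PALM* overlaps *PRSS57* and *INHBC* overlaps *R3HDM2*.

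At the other end, *NUP210*, a membrane protein of the nuclear pore (chromosome 12, 5802480 to 5861495), was measured at 10.3 to 62.04 CPM (median 44.9) with Sal and at 2.698 to 6.49 CPM (median 5.54) without (log2FC 2.997, SE 0.39, edgeR p-adj = 0.00221). *GFRA3*, a co-receptor of the GDNF family, had a median of 262 CPM in Sal-exposed livers and 56.1 CPM in controls (log2FC 2.28, SE 0.30, edgeR p-adj = 0.00221). *NNT*, the mitochondrial transhydrogenase that makes NADPH, lay between 74.9 and 157 CPM (median 129) in the Sal-exposed livers and between 29.3 and 54.6 CPM (median 43.3) in the controls (log2FC 1.49, SE 0.20, edgeR p-adj = 0.00331). All Sal-exposed livers were above all control livers in these 3 genes too, although Sal-exposed liver 2 was the lowest of its group in each of them. *ADSS1* (1.21) of adenine nucleotide synthesis, *CPT1A* (2.26), *ATP13A3* (2.08), a transporter of polyamines, *RCC2* (1.15) of the mitotic spindle, *VPS13C* (1.95), which moves lipids between organelles, *MTR* (1.38), methionine synthase, and *IP6K2* (1.70), an inositol phosphate kinase, completed the 10 upregulated genes with a symbol and the lowest p, each with its log2FC in brackets and without overlap between the groups. *RCC2* overlaps *ARHGEF10L* in the annotation. The span of another annotated gene overlaps 89 of the 331 genes that passed, including, among those described in the paragraphs that follow, *VTN* (with *KIF12* and *SARM1*), *CFD* (*MED16*), *GPX3* (*TNIP1*), *THY1* (*RNF26*), *KRT7* (*KRT80*), *P3H1* (*C1orf50*), *PDHB* (*KCTD6*), *ACAA1* (*DLEC1*), *CYP2AC2* (*CENPQ*), *NR1I3* (*TOMM40L*), *HSPA4L* (*PLK4*), *DNAJA4* (*PSMA4* and *WDR61*), *NEK6* (*PSMB7*), *MDM2* (*CPM*), *ASH1L* (*KHDC4*), *INO80* (*CHAC1*) and *MAPK9* (*GFPT2*), and the values of these genes carry the same limit.

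**Figure D2:**
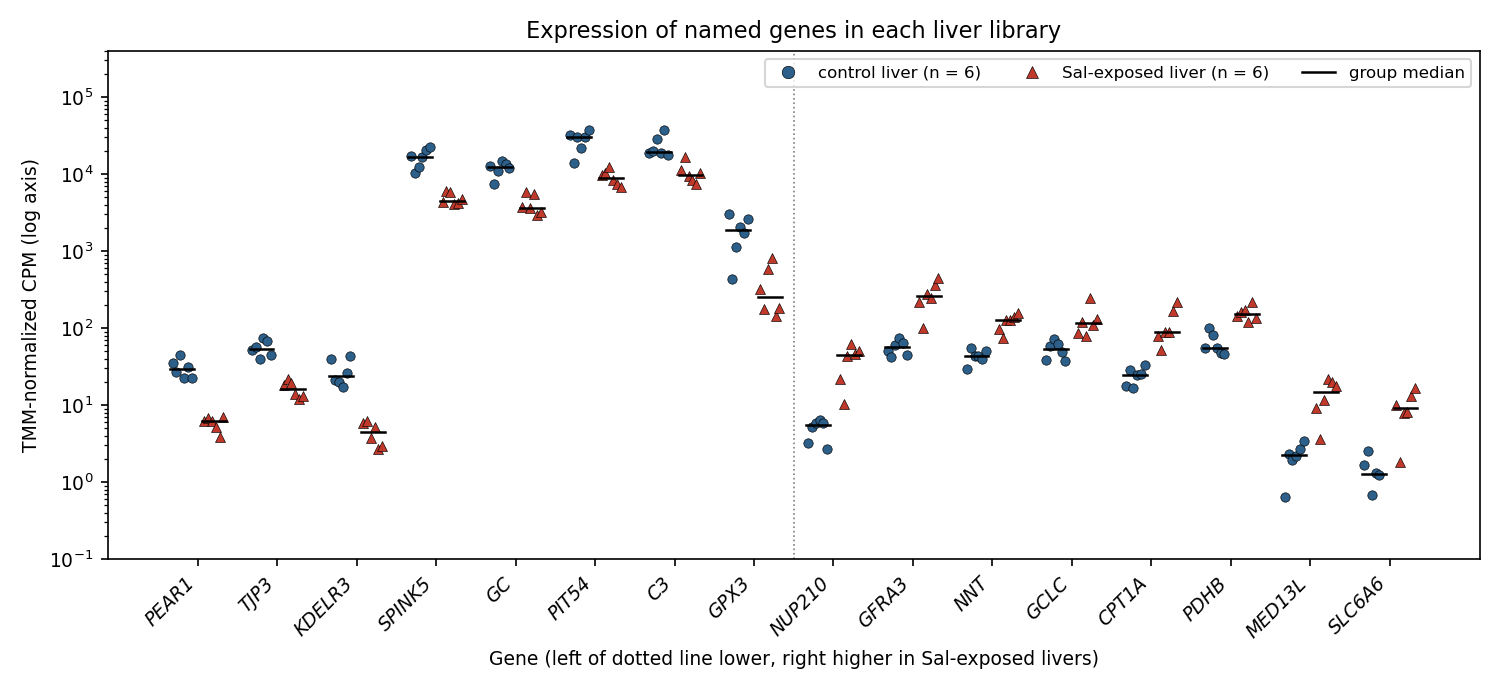
TMM-normalized CPM (log axis) of 16 named genes in each of the 6 control livers (blue circles) and 6 Sal-exposed livers (red triangles), with the group median as a black line. The groups overlap in GPX3 and SLC6A6 and do not overlap in the other 14 genes, and control liver 6, which had no count of SLC6A6, lies off the log axis.

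Genes of secreted plasma proteins were lower in the Sal-exposed livers. Of 27 plasma carriers and acute-phase proteins tested, 13 passed p-adj downward and none upward, and the median log2FC of the list was -1.02, beside -0.01 for all genes tested. With 1 library left out the number lower went from 6 (without Sal-exposed liver 6) to 14 (without Sal-exposed liver 2, Sal-exposed liver 4 or control liver 2). *GC*, the vitamin D-binding protein, ranged from 2956 to 5807 CPM in the Sal-exposed group (median 3677) and from 7481 to 14857 CPM in the control group (median 12352) (log2FC -1.53, SE 0.26, edgeR p-adj = 0.00456). *PIT54*, the haemoglobin-binding protein of chicken plasma, had a median of 8969 CPM in Sal-exposed livers (6815 to 12290.3), against 30651 CPM in control livers (13909 to 37127) (log2FC -1.61, SE 0.28, edgeR p-adj = 0.00527). Neither gene overlapped between the groups. The acute-phase protein *ORM1* had a median of 2125 CPM in Sal-exposed livers and 9179 CPM in controls (log2FC -1.89, SE 0.45, edgeR p-adj = 0.0151), yet its lowest control value, 1571 CPM, was below all 6 Sal-exposed values. *SAA*, serum amyloid A, was measured at 23.8 to 224 CPM (median 96.8) with Sal and at 38.3 to 7921 CPM (median 485) without and passed with the widest spread of these genes (log2FC -4.26, SE 1.11, edgeR p-adj = 0.0222). Its p-adj, given in brackets, was above 0.05 without Sal-exposed liver 5 (0.0529), Sal-exposed liver 6 (0.057) or control liver 5 (0.0555). Further members that fell were *VTN* (-1.43), *FETUB* (-1.13), *CP* (-1.71), *APOH* (-1.08, 10 of 12), *LECT2* (-2.88, 11 of 12), *AMBP* (-1.02, 7 of 12), *ITIH2* (-1.01, 7 of 12), *TF* (-0.97, 3 of 12) and *SERPINF2* (-0.64, 3 of 12), given as log2FC. Albumin (*ALB*), the gene with the most counts, had a median of 70329.5 CPM in Sal-exposed livers and 117556 CPM in controls and did not pass (log2FC -0.77, SE 0.34, edgeR p-adj = 0.136).

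Complement and coagulation genes followed with fewer members. In the complement list 5 of 20 genes tested fell and none rose, with a median log2FC of -0.51. *C3*, the central component, lay between 7532 and 16502 CPM (median 9817) in the Sal-exposed livers and between 17931 and 37763 CPM (median 19386) in the controls (log2FC -1.16, SE 0.29, edgeR p-adj = 0.0176). *SERPING1*, the inhibitor of the first component, had a median of 1604 CPM in Sal-exposed livers and 4929 CPM in controls (log2FC -1.45, SE 0.27, edgeR p-adj = 0.00664). *C8A* (-1.27) of the membrane attack complex, *CFD* (-1.05), the protease of the alternative pathway, and *C1QC* (-0.94), which macrophages make, fell as well (log2FC in brackets). The groups did not overlap in *C3*, *SERPING1*, *C8A* and *CFD*, and all 5 genes passed p-adj in every fit with 1 library left out. Of 19 coagulation genes tested, 4 fell and none rose: *F7* (-0.64), *F9* (-0.92), *PLG* (-0.97, 8 of 12), the plasminogen gene, and *F13A1* (-1.49, 3 of 12). That count became 2 without Sal-exposed liver 1, Sal-exposed liver 3, Sal-exposed liver 5 or Sal-exposed liver 6 and 9 without control liver 2. The fibrinogen chains had log2FC of -0.52 (*FGA*, edgeR p-adj = 0.178), -0.90 (*FGB*, edgeR p-adj = 0.0604) and -1.16 (*FGG*, edgeR p-adj = 0.0565) and did not pass. For *FGG* the lowest value of all 12 livers, 2626 CPM, was in a control.

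Further secreted proteins outside the lists fell. *SPINK5*, a serine protease inhibitor among the 10 DE genes with a symbol and the highest mean CPM, ranged from 4096 to 5978 CPM in the Sal-exposed group (median 4521) and from 10299 to 22289 CPM in the control group (median 16929.6) (log2FC -1.77, SE 0.25, edgeR p-adj = 0.00331). The lowest control exceeded the highest Sal-exposed liver. It is annotated at chromosome 13, 10159365 to 10169565. The gene ENSGALG00010026205 (chromosome 27, 1334444 to 1345134) has no symbol in the deposited gene annotation, and RefSeq lists *A2ML4*, an alpha-2-macroglobulin-like protein, at its place on the same assembly. By p it came between *CROCC* and *EHD2* among all downregulated genes. It ranged from 1813 to 2948 CPM in Sal-exposed livers (median 2568) and from 5755 to 16935 CPM in controls (median 9877), again without overlap (log2FC -2.16, SE 0.28, edgeR p-adj = 0.00221).

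Markers of cholangiocytes and endothelial cells separated the groups by their summed level, whereas the sums of the other cell types examined overlapped, and the shares of cells were not measured. The summed level of 8 cholangiocyte markers was 232 to 484 CPM in Sal-exposed and 487 to 809.9 CPM in control livers, and that of 19 endothelial markers 524 to 759.97 against 767 to 1019 CPM. Neither sum overlapped between the groups, though both met almost at the edge. Both lists were chosen with earlier results of these data known. The endothelial list holds *PEAR1*, *EGFL7* and *EHD2*, which are among the downregulated genes with the lowest p of this contrast. The separation of these sums is therefore no independent evidence. Of the cholangiocyte markers 5 fell and none rose: *KRT7* (-1.47), *EPCAM* (-0.72), *KRT18* (-1.32), *SPP1* (-1.29, 11 of 12), which macrophages also make, and *AQP1* (-1.13, 11 of 12), a water channel (log2FC). *KRT7*, a keratin of bile ducts, had a median of 5.48 CPM in Sal-exposed livers (2.16 to 7.01), against 13.9 CPM in control livers (9.27 to 19.7) (log2FC -1.47, SE 0.28, edgeR p-adj = 0.00641).

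The 5 endothelial markers that fell were *PEAR1*, *EGFL7* and *EHD2*, described above, *STAB1* (-0.97), the scavenger receptor of sinusoidal endothelium, and *MMRN2* (-0.92, 3 of 12). By contrast, the general endothelial marker *PECAM1* had a median of 76.9 CPM in Sal-exposed livers and 66.2 CPM in controls (log2FC 0.22, SE 0.19, edgeR p-adj = 0.449) and the sinusoidal marker *LYVE1* a median of 18.8 CPM in Sal-exposed livers and 22.7 CPM in controls (log2FC -0.23, SE 0.23, edgeR p-adj = 0.514). Neither passed, and 9 of the 19 endothelial markers had a log2FC above 0, with a list median of -0.06 that was 0.01 with upper-quartile scaling. 

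Of 16 stellate cell and fibroblast markers, 6 fell and none rose. *THY1*, a surface protein of portal fibroblasts, was measured at 0.349 to 1.52 CPM (median 0.982) with Sal and at 2.47 to 10.9 CPM (median 5.67) without (log2FC -2.70, SE 0.45, edgeR p-adj = 0.00443), without overlap between the groups. *COL1A1* (-1.39), *COL1A2* (-1.14, 10 of 12), *VIM* (-0.86), *TAGLN* (-1.08, 8 of 12) and *DES* (-0.80, 6 of 12) were the other 5 (log2FC), whereas *ACTA2*, smooth muscle actin, did not pass at 70.5 against 56.5 CPM (group medians, edgeR p-adj = 0.678). Heterophil markers showed the lowest median of the marker lists of liver and blood cells, -1.59 over 6 genes, of which *S100A12*, *CSF3R* and *LECT2* fell. *LECT2* is also counted above among the plasma proteins. The summed heterophil level overlapped between the groups, 65.4 to 223 CPM in Sal-exposed and 109 to 944 CPM in control livers. *S100A12*, a calcium-binding protein of granulocytes, lay between 2.53 and 11.3 CPM (median 7.41) in the Sal-exposed livers and between 11.6 and 302 CPM (median 147) in the controls (log2FC -4.30, SE 0.74, edgeR p-adj = 0.00493). *CSF3R*, the G-CSF receptor, had a median of 12.5 CPM in Sal-exposed livers and 46.7 CPM in controls (log2FC -1.73, SE 0.38, edgeR p-adj = 0.0113), again without overlap.

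Thrombocyte and erythrocyte markers fell in part: 5 of 12 and 3 of 7. Among them were both chains of the fibrinogen receptor, *ITGA2B* (log2FC -1.57, SE 0.31, edgeR p-adj = 0.00804) and *ITGB3* (log2FC -1.17, SE 0.24, edgeR p-adj = 0.00822). The haemoglobin genes *HBBA* (-1.38, 6 of 12, 89.8 against 209 CPM) and *HBA1* (-1.35, 3 of 12, 61.8 against 135 CPM, log2FC and group medians) belong to families with near-identical copies, so reads may be split between members. Of 15 macrophage markers *C1QC* and *MARCO* (-0.66, 4 of 12) fell, while *CSF1R* had a log2FC of 0.18 (edgeR p-adj = 0.679). In the lymphocyte list *PTPRC* rose (0.83, 5 of 12) and *IL2RG* fell (-0.81, 8 of 12), and the summed levels overlapped, 322 to 481 CPM against 257 to 516 CPM in controls. The hepatocyte marker sum was 112516 to 195403 CPM in Sal-exposed and 133329 to 301689 CPM in control livers, with 3 of 18 markers lower (*GC*, *APOH* and *AMBP*). The part of cell composition in the results on plasma proteins and matrix was not tested.

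**Figure D3:**
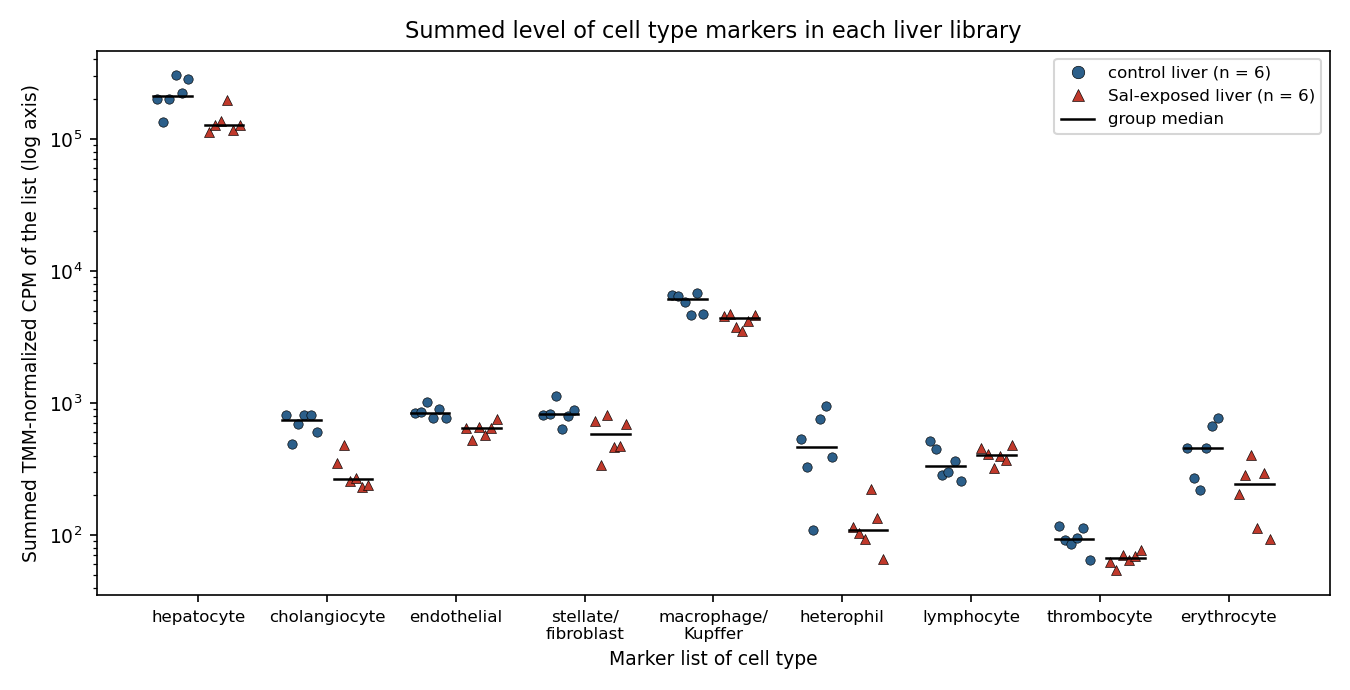
Summed TMM-normalized CPM (log axis) of the markers of 9 cell types in each of the 6 control livers (blue circles) and 6 Sal-exposed livers (red triangles), with the group median as a black line. The groups do not overlap for cholangiocyte and endothelial markers and overlap for the other 7 lists.

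Matrix genes went the same way as the fibroblast markers, with which they share *COL1A1* and *COL1A2*. Of 60 collagen, laminin and matrix genes tested, 14 fell and none rose, with a median log2FC of -0.45. *P3H1*, a hydroxylase of procollagen, ranged from 22.1 to 42.04 CPM in the Sal-exposed group (median 36.96) and from 53.8 to 90.9 CPM in the control group (median 70.6) (log2FC -1.04, SE 0.19, edgeR p-adj = 0.00551). *COL1A1*, the alpha 1 chain of type I collagen, had a median of 47.4 CPM in Sal-exposed livers (28.7 to 92.7), against 139.6 CPM in control livers (90.8 to 193) (log2FC -1.39, SE 0.31, edgeR p-adj = 0.0121). *COL1A2* had a median of 54.9 CPM in Sal-exposed livers and 108 CPM in controls (log2FC -1.14, SE 0.31, edgeR p-adj = 0.0264, 10 of 12). The groups met only at the edge for *COL1A1*, where the highest Sal-exposed liver was just above the lowest control, and did not overlap for *P3H1* and *COL1A2*. *LOXL3* (-1.17) and *P3H3* (-0.94) of collagen cross-linking and hydroxylation, the collagen chaperone *SERPINH1* (-0.73, 7 of 12), the laminin chains *LAMB1* (-0.84) and *LAMC1* (-0.48, 3 of 12), *SPARC* (-0.73, 5 of 12), *VCAN* (-1.76, 8 of 12), *TIMP2* (-0.69), *MMP7* (-2.09, 8 of 12), *SPP1* and *TGFB1* (-0.92, 9 of 12) completed the count (log2FC). *MMP7* and *VCAN* were low, with control medians of 2.39 and 1.55 CPM. The number of matrix genes that fell was 7 without Sal-exposed liver 5 or Sal-exposed liver 6 and 8 without Sal-exposed liver 3. Of the matrix genes that the study itself listed from these samples, 9 of 13 tested fell, which is no independent evidence of direction. The other 4, *NCAM1* (-1.38, edgeR p-adj = 0.0565), *LAMB2* (-1.74, p-adj = 0.148), *FGG* (p-adj = 0.0565) and *DDR1* (-0.07, p-adj = 0.874), did not pass.

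Enzymes of amino acid breakdown were lower more often than higher, with 10 of 47 tested lower, 1 higher and a median log2FC of -0.36. *AGXT*, which converts glyoxylate to glycine, was measured at 31.3 to 95.1 CPM (median 53.8) with Sal and at 106 to 217 CPM (median 163) without (log2FC -1.496, SE 0.26, edgeR p-adj = 0.00489). *KMO* of the kynurenine pathway had a median of 93.5 CPM in Sal-exposed livers and 158 CPM in controls (log2FC -0.88, SE 0.16, edgeR p-adj = 0.00544). *UROC1* of histidine breakdown had a median of 55.95 CPM in Sal-exposed livers and 101 CPM in controls (log2FC -0.95, SE 0.18, edgeR p-adj = 0.00725). The groups did not overlap in these 3 genes. Histidine breakdown was represented by 4 members, since *HAL* (-0.98), *AMDHD1* (-0.80, 8 of 12) and *FTCD* (-0.73, 5 of 12) fell with *UROC1*, and *KYNU* (-1.13, 11 of 12) of the kynurenine pathway, *SARDH* (-1.31) of choline breakdown, *FAH* (-0.97) of tyrosine breakdown and *CTH* (-0.54, 2 of 12) made up the rest (log2FC). The member that rose was *DLD*, a subunit shared with pyruvate dehydrogenase. Amino acid transporters did not share this direction, since 2 of 25 tested rose and 3 fell, with a median log2FC of 0.12. Among those that fell was the glutamine transporter *SLC38A3*, with a median of 201 CPM in Sal-exposed livers and 381 CPM in controls (log2FC -0.94, SE 0.21, edgeR p-adj = 0.0113).

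Of 30 cytochrome P450 genes tested, 2 rose and 5 fell, and with 1 library left out the number that fell went from 1 (without Sal-exposed liver 6 or control liver 4) to 6 (without Sal-exposed liver 4 or control liver 3). *CYP2U1*, a fatty acid hydroxylase, lay between 33.04 and 99.8 CPM (median 67.7) in the Sal-exposed livers and between 12.8 and 29.8 CPM (median 21.5) in the controls (log2FC 1.61, SE 0.28, edgeR p-adj = 0.00518). *CYP7B1* of oxysterol and bile acid metabolism had a median of 26.6 CPM in Sal-exposed livers and 13.6 CPM in controls (log2FC 1.12, SE 0.28, edgeR p-adj = 0.0177, 11 of 12). Lower were *CYP2AC2* (log2FC -1.15, SE 0.25, edgeR p-adj = 0.0101), *CYP4F11* (log2FC -1.05, SE 0.27, edgeR p-adj = 0.0215, 10 of 12) and *CYP3A4* (log2FC -1.19, SE 0.35, edgeR p-adj = 0.0356, 5 of 12), the last a member of the family that oxidises most drugs in humans. *CYP2C23a* ranged from 209.7 to 692 CPM in the Sal-exposed group (median 247) and from 302 to 4226 CPM in the control group (median 734) (log2FC -2.21, SE 0.62, edgeR p-adj = 0.0291), where the groups overlapped widely, and it belongs to a family with near-identical copies. Its p-adj rose above 0.05 without Sal-exposed liver 1 (0.0633), Sal-exposed liver 3 (0.0626), Sal-exposed liver 5 (0.0705), Sal-exposed liver 6 (0.0718) or control liver 4 (0.0811). The genes *CYP1A1* and *CYP1A2*, which respond to aryl hydrocarbons, had log2FC of -0.48 and -0.02 and did not pass (edgeR p-adj = 0.577 and 0.98). Among 38 conjugation enzymes and export pumps 3 rose and 5 fell, shares near those of all genes, with *UGT8* (log2FC 1.42, SE 0.34, edgeR p-adj = 0.0154) and *ADH1C* (log2FC -1.04, SE 0.29, edgeR p-adj = 0.0297, 6 of 12) as examples in each direction. In *ADH1C* Sal-exposed liver 4, at 2104 CPM, stood far above the other 5 of its group.

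Nuclear receptors and related factors that regulate these enzymes had 4 members up and 4 down of 31 tested. This split was not stable, since it was 1 up and 5 down with offsets on span, and with 1 library left out the number up went from 1 (without Sal-exposed liver 6, control liver 4 or control liver 5) to 7 (without Sal-exposed liver 2 or control liver 6) and the number down from 1 (with several libraries left out in turn) to 5 (without control liver 6). *PPARG*, the receptor of fat storage, had a median of 10.5 CPM in Sal-exposed livers (7.89 to 21.3), against 5.84 CPM in control livers (3.53 to 6.77) (log2FC 1.09, SE 0.25, edgeR p-adj = 0.0138), without overlap. *NR1I3*, a receptor that responds to drugs, had a median of 28.9 CPM in Sal-exposed livers and 67.5 CPM in controls (log2FC -1.03, SE 0.24, edgeR p-adj = 0.0147). The oxidative stress factor *NFE2L2* (0.78, 9 of 12), *NR1H3* (0.57, 3 of 12) and *ESRRG* (0.95, 4 of 12) rose, and *ARNT* (-0.63, 4 of 12), *RXRA* (-0.50, 2 of 12) and *THRA* (-0.47, 2 of 12) fell (log2FC). *PPARA* had a median of 15.05 CPM in Sal-exposed livers and 15.4 CPM in controls (edgeR p-adj = 0.649).

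In lipid metabolism *CPT1A*, *SLC25A20* and *ACAA1* of fatty acid oxidation rose. *CPT1A*, the carnitine acyltransferase at the mitochondrial entry, was measured at 51.7 to 217 CPM (median 90.2) with Sal and at 16.8 to 33.6 CPM (median 24.9) without (log2FC 2.26, SE 0.32, edgeR p-adj = 0.00331). Its highest values were in Sal-exposed livers 6 and 5, and Sal-exposed liver 2 was again lowest. *SLC25A20*, the carnitine carrier that follows it, had a median of 106 CPM in Sal-exposed livers and 66.7 CPM in controls (log2FC 0.72, SE 0.21, edgeR p-adj = 0.0345, 4 of 12). *ACAA1*, the peroxisomal thiolase, had a median of 186 CPM in Sal-exposed livers and 101 CPM in controls (log2FC 0.89, SE 0.18, edgeR p-adj = 0.00791). The list of 29 fatty acid oxidation and ketogenesis genes had 3 members up (10.3%) and 1 down (3.45%), *ACOX2* (-0.62, 3 of 12), and a median of 0.18. Over all genes tested 7.57% rose and 7.84% fell. *ACADL*, an acyl-CoA dehydrogenase, did not pass (log2FC -0.15, edgeR p-adj = 0.673). Of 26 lipogenesis genes *LPIN1* (2.55, 10 of 12), *ELOVL5* (0.78, 5 of 12) and *ACSL1* (0.69, 3 of 12) rose (log2FC), 11.5% of the list. With offsets on span 1 gene of this list rose. The synthesis enzymes *FASN* (-0.19, edgeR p-adj = 0.716), *ACACA* (-0.15, p-adj = 0.675) and *SCD* (-0.11, p-adj = 0.872) overlapped between the groups. 

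Cholesterol genes gave 2 up (8.70%) and 1 down (4.35%) of 23, beside 7.57% and 7.84% of all genes. *INSIG1* (log2FC 1.30, SE 0.37, edgeR p-adj = 0.0321, 5 of 12) and *INSIG2* (log2FC 0.82, SE 0.24, edgeR p-adj = 0.0349, 7 of 12), which hold sterol-sensing factors in the ER, rose, and *SC5D* fell from a control median of 1748 to 315 CPM (log2FC -1.67, SE 0.47, edgeR p-adj = 0.0301, 5 of 12). Of 22 genes of apolipoproteins and lipoprotein assembly tested, 3 rose and 5 fell, with a median log2FC of -0.35. On the lipoprotein side the lipases *LPL* (log2FC 0.95, SE 0.21, edgeR p-adj = 0.0111) and *LIPC* (log2FC 1.18, SE 0.29, edgeR p-adj = 0.0174) and the exporter *ABCA1* (log2FC 0.77, SE 0.16, edgeR p-adj = 0.01) rose, and the receptors *SCARB1* (log2FC -0.89, SE 0.18, edgeR p-adj = 0.00796) and *LRP1* (log2FC -0.85, SE 0.19, edgeR p-adj = 0.012) fell. In the 5 genes named in the last sentence all livers of one group lay on one side of the other. *APOB* (2042 against 2633 CPM) and *APOA1* (14717 against 19140.3 CPM, group medians) did not pass (edgeR p-adj = 0.715 and 0.558).

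Among 33 antioxidant enzymes 5 rose and 1 fell. Besides *NNT*, both subunits of the enzyme that limits glutathione synthesis rose: *GCLC* lay between 79.7 and 247 CPM (median 115) in the Sal-exposed livers and between 36.9 and 71.2 CPM (median 54.1) in the controls (log2FC 1.29, SE 0.27, edgeR p-adj = 0.0101). *GCLM* had a median of 45.7 CPM in Sal-exposed livers and 28.1 CPM in controls (log2FC 0.75, SE 0.14, edgeR p-adj = 0.00589). Neither overlapped between the groups. *TXNRD2* (1.85, 7 of 12) and *TXNRD3* (0.95, 4 of 12), thioredoxin reductases, were the other members that rose (log2FC). *GPX3*, the secreted glutathione peroxidase, ranged from 145 to 818 CPM in the Sal-exposed group (median 254) and from 432 to 3063 CPM in the control group (median 1880.0) (log2FC -2.30, SE 0.51, edgeR p-adj = 0.0119), and its groups met where Sal-exposed livers 3 and 4 exceeded control liver 2. *HMOX1* (0.09, edgeR p-adj = 0.825), *NQO1* (-0.30, p-adj = 0.509), *CAT* (0.43, p-adj = 0.264), *SOD1* (0.06, p-adj = 0.877) and *SOD2* (-0.14, p-adj = 0.722) did not pass.

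Enzymes of the TCA cycle and its entry rose in 5 of 22 cases. *PDHB*, a subunit of pyruvate dehydrogenase, had a median of 153 CPM in Sal-exposed livers (119.5 to 217), against 54.7 CPM in control livers (46.6 to 99.9) (log2FC 1.31, SE 0.22, edgeR p-adj = 0.00493). *DLD* had a median of 91.8 CPM in Sal-exposed livers and 61.4 CPM in controls (log2FC 0.67, SE 0.14, edgeR p-adj = 0.00963). *SUCLA2* (0.90, 10 of 12), *IDH3A* (0.64, 5 of 12) and *ACO1* (0.60, 3 of 12), the cytosolic aconitase, also rose (log2FC). *OGDH*, the oxoglutarate dehydrogenase that also uses *DLD*, fell, and was measured at 109.7 to 249 CPM (median 156) with Sal and at 299.9 to 502 CPM (median 375) without (log2FC -1.18, SE 0.22, edgeR p-adj = 0.00622). *PDHB*, *DLD* and *OGDH* did not overlap between the groups. Of 23 glycolysis genes none passed p-adj in edgeR or DESeq2, and 1 had an unadjusted edgeR p under 0.05; their median log2FC was -0.11. In purine synthesis, the source of uric acid in birds, *ADSS1* lay between 12.1 and 14.4 CPM (median 12.8) in the Sal-exposed livers and between 4.56 and 7.12 CPM (median 5.39) in the controls (log2FC 1.21, SE 0.17, edgeR p-adj = 0.00331). *ADSS2* had a median of 19.7 CPM in Sal-exposed livers and 10.7 CPM in controls (log2FC 0.81, SE 0.22, edgeR p-adj = 0.0247, 8 of 12), whereas *ADSL*, the next enzyme of the same branch, fell (223 against 471 CPM, group medians, log2FC -0.92, SE 0.22, edgeR p-adj = 0.0169).

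None of the 13 genes for proteins encoded in mitochondrial DNA passed p-adj in edgeR over the 12 livers, where 4 were lower at an unadjusted p under 0.05, 2 passed downward in DESeq2, and the list median log2FC was -1.14. *COX1* ranged from 13483 to 87351 CPM in the Sal-exposed group (median 16247) and from 12356 to 87396 CPM in the control group (median 57616) (log2FC -0.86, SE 0.56, edgeR p-adj = 0.311). *CYTB* had a median of 6612 CPM in Sal-exposed livers and 28002 CPM in controls (log2FC -1.07, SE 0.58, edgeR p-adj = 0.228). Sal-exposed liver 4, which has the high mitochondrial share, set the upper end of the Sal-exposed range. Without it, 10 of the 13 passed p-adj downward. In *COX1* control liver 2, at 12356 CPM, was the lowest of all 12 livers. The 53 nuclear genes of the respiratory chain and ATP synthase had a median of -0.09, with none up and 3 down, *NDUFA4* (-1.21, 4 of 12), *NDUFA12* (-0.96, 4 of 12) and *NDUFB10* (-0.78, 4 of 12) in log2FC. With offsets on genomic span, described below, the direction turned, with 4 up, none down and a median of 0.04.

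Genes of the ER moved in both directions. Of 26 chaperones and folding enzymes of the ER 2 rose (7.69%) and 2 fell (7.69%), around a median of -0.43. These shares were near those of all genes tested, 7.57% and 7.84%. *ERO1A*, the oxidase that drives disulphide formation, had a median of 9.67 CPM in Sal-exposed livers (7.04 to 12.2), against 17.2 CPM in control livers (12.5 to 28.4) (log2FC -0.98, SE 0.21, edgeR p-adj = 0.0103). *CALR*, calreticulin, had a median of 843 CPM in Sal-exposed livers and 1852 CPM in controls (log2FC -1.05, SE 0.28, edgeR p-adj = 0.0252), but its p-adj exceeded 0.05 without Sal-exposed liver 3 (0.0611), Sal-exposed liver 5 (0.0636), Sal-exposed liver 6 (0.0641), control liver 1 (0.0519) or control liver 4 (0.0604). The major chaperone *HSPA5* had a median of 804 CPM in Sal-exposed livers and 965 CPM in controls and did not pass (log2FC -0.11, SE 0.28, edgeR p-adj = 0.827). Among the regulators of the unfolded protein response, 4 of 20 rose and 2 fell. *ERN1*, the ER stress sensor IRE1, was measured at 25.3 to 42.9 CPM (median 38.8) with Sal and at 11.7 to 21.1 CPM (median 16.9) without (log2FC 1.16, SE 0.18, edgeR p-adj = 0.00393). *EIF2AK3*, the sensor PERK, was higher (log2FC 0.73, SE 0.21, edgeR p-adj = 0.0301, 6 of 12). *EDEM3* (1.14) and *SEL1L* (0.89, 11 of 12) of ER-associated degradation rose, and *DERL2* (-0.58, 8 of 12) and *CREB3L1* (-1.54, 7 of 12) fell (log2FC). The factors downstream of these sensors, *XBP1* (0.17, edgeR p-adj = 0.596) and *ATF4* (-0.38, p-adj = 0.454), did not pass at the level of their transcripts.

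On the route from the ER to the Golgi, 5 of 29 genes rose and 3 fell. The COPII coat subunits *SEC24C* (log2FC 0.72, SE 0.14, edgeR p-adj = 0.0074), *SEC23A* (log2FC 0.63, SE 0.14, edgeR p-adj = 0.0131) and *SEC24B* (log2FC 0.94, SE 0.25, edgeR p-adj = 0.0248, 10 of 12) rose, and with them the cargo receptors *TMED2* (0.58, 11 of 12) and *SURF4* (0.49, 7 of 12) (log2FC). *KDELR3*, described above, *TMED3* (-0.94, 5 of 12) and *COPB2* (-0.44, 3 of 12) of the COPI coat, which runs the opposite way, fell. *MAN1B1*, a mannosidase that marks misfolded glycoproteins, lay between 34.9 and 73.4 CPM (median 51.7) in the Sal-exposed livers and between 18.4 and 32.2 CPM (median 24.2) in the controls (log2FC 1.10, SE 0.19, edgeR p-adj = 0.00518), without overlap between the groups. At the translocation step *SRP72* of the signal recognition particle fell (log2FC -0.94, SE 0.22, edgeR p-adj = 0.014), and *SEC11A* (-0.49, 2 of 12) and *SSR2* (-0.65, 2 of 12) passed at edgeR p-adj of 0.0488 and 0.0499, close to the threshold.

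Cytosolic heat shock genes were also split, with 7 of 30 higher and 4 lower. *HSPA4L*, an HSP110 family member, ranged from 39.4 to 52.2 CPM in the Sal-exposed group (median 45.5) and from 22.004 to 29.96 CPM in the control group (median 26.4) (log2FC 0.77, SE 0.13, edgeR p-adj = 0.00499). *HSP90AA1* had a median of 984 CPM in Sal-exposed livers (800.1 to 1143), against 572 CPM in control livers (204 to 674) (log2FC 1.04, SE 0.29, edgeR p-adj = 0.0284), and its p-adj was above 0.05 without Sal-exposed liver 1 (0.0535), Sal-exposed liver 3 (0.0521), Sal-exposed liver 6 (0.056) or control liver 5 (0.0508). *DNAJA4* (log2FC 1.06, SE 0.22, edgeR p-adj = 0.0094) and *DNAJB4* (log2FC 0.75, SE 0.16, edgeR p-adj = 0.0105), co-chaperones of HSP70, rose in all fits with 1 library left out. These 4 genes did not overlap between the groups. *HSPH1* (0.87, 7 of 12), *CHORDC1* (0.78, 7 of 12) and *HSP90AB1* (1.30, 1 of 12) also rose (log2FC), and the HSP90 genes are close copies. *HSF1*, the master regulator of these genes, went the other way and was measured at 4.81 to 12.4 CPM (median 6.68) with Sal and at 9.802 to 33.9 CPM (median 21.1) without (log2FC -1.61, SE 0.32, edgeR p-adj = 0.00783). *STIP1* (-0.90), which links HSP70 to HSP90, *HSF3* (-0.53, 2 of 12), a heat shock factor of birds, and *STUB1* (-0.58, 2 of 12) fell too. *HSPA8* (0.56, edgeR p-adj = 0.242) and *HSPB1* (-0.97, p-adj = 0.254) did not pass.

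Of 78 cell cycle genes tested, 11 passed upward (14.1%) and 2 downward (2.56%), beside 7.57% and 7.84% of all genes. A log2FC above 0 at any p was found in 62 of the 78. Their median log2FC was 0.50, beside -0.01 for all genes tested. *RBL1*, a retinoblastoma family member that restrains E2F, lay between 3.22 and 11.3 CPM (median 9.98) in the Sal-exposed livers and between 1.19 and 5.15 CPM (median 1.67) in the controls (log2FC 2.03, SE 0.40, edgeR p-adj = 0.00783). Its relative *RBL2* had a median of 16.02 CPM in Sal-exposed livers and 8.27 CPM in controls (log2FC 0.95, SE 0.21, edgeR p-adj = 0.0111). *NEK6*, a mitotic kinase, ranged from 7.48 to 14.9 CPM in the Sal-exposed group (median 13.1) and from 2.41 to 6.49996 CPM in the control group (median 4.21) (log2FC 1.51, SE 0.26, edgeR p-adj = 0.00458). Single livers of the groups met for *RBL1* and *RBL2* but not for *NEK6*. *NCAPG2* (1.84, 11 of 12) of condensin, *KNTC1* (1.36) of the kinetochore, *NEK2* (1.48, 8 of 12), *MASTL* (1.49, 7 of 12), *KIF11* (1.67, 4 of 12), *KIF23* (0.88, 4 of 12), *ECT2* (1.49, 5 of 12) and *CDC45* (1.505, 3 of 12) were the other 8 that rose, and *CDKN1C* (-1.72, 8 of 12), an inhibitor of the cycle, and the centromere histone *CENPA* (-1.95, 3 of 12) fell (log2FC). Common proliferation markers did not pass, with log2FC of 0.84 for *TOP2A* (edgeR p-adj = 0.12), 0.70 for *CDK1* (p-adj = 0.137) and 0.34 for *PCNA* (p-adj = 0.216). The count of 11 became 4 without Sal-exposed liver 6, 5 without Sal-exposed liver 5 or control liver 4, 6 without Sal-exposed liver 3, 7 without Sal-exposed liver 1, control liver 1, control liver 3 or control liver 5, 18 without Sal-exposed liver 2 and 26 without control liver 2. Of 29 mitotic genes that the study listed from these samples, 23 passed upward, a list that is no independent evidence of its direction, and the count was 13 without Sal-exposed liver 6 and 15 without Sal-exposed liver 5. It includes *STAG2* (2.11) and *RAD21* (1.07) of cohesin and *CKAP5* (0.997) of the spindle. *MDM2*, a target and inhibitor of p53, had a median of 16.2 CPM in Sal-exposed livers (8.28 to 20.96), against 5.83 CPM in control livers (4.07 to 7.96) (log2FC 1.43, SE 0.24, edgeR p-adj = 0.00443) and was the only one of 23 p53 targets to pass in edgeR, while *CDKN1A* had a median of 23.02 CPM in Sal-exposed livers and 6.57 CPM in controls (log2FC 1.62, SE 0.61, edgeR p-adj = 0.0855).

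Nuclear pore and transport genes had 10 of 51 members up and 2 down. Next to *NUP210*, *XPO1*, the main exporter of proteins, was measured at 74.002 to 107 CPM (median 91.6) with Sal and at 32.4 to 57.2 CPM (median 41.98) without (log2FC 1.07, SE 0.17, edgeR p-adj = 0.00393), without overlap. *NUP153* (1.04) and *NUP155* (0.98), *KPNA1* (0.93, 10 of 12), *KPNA5* (1.29, 9 of 12), *IPO8* (0.86), *TNPO1* (0.72, 5 of 12), *XPOT* (0.72) and *NUP205* (0.45, 4 of 12) rose, and *NUP62* (-0.88) and *XPO6* (-0.45, 2 of 12) fell (log2FC).

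Of 81 chromatin modifiers tested, 24 rose and 5 fell, with a median log2FC of 0.41. *MED13L* of the Mediator kinase module lay between 3.59 and 21.6 CPM (median 14.9) in the Sal-exposed livers and between 0.633 and 3.38 CPM (median 2.27) in the controls (log2FC 2.67, SE 0.44, edgeR p-adj = 0.00419). *ASH1L*, a histone methyltransferase, had a median of 38.9 CPM in Sal-exposed livers and 20.5 CPM in controls (log2FC 0.94, SE 0.16, edgeR p-adj = 0.00443). *INO80*, a remodelling ATPase, had a median of 18.2 CPM in Sal-exposed livers and 8.91 CPM in controls (log2FC 1.09, SE 0.18, edgeR p-adj = 0.00443). The groups did not overlap in these 3 genes. *ATRX* (2.35), *NCOA3* (2.47), *CHD9* (1.73), *MED13* (1.68), *ARID1B* (1.28), *ARID1A* (1.08), *TRRAP* (1.000) and *KDM5A* (0.90) were among the rest, each passing with any library left out, and *KAT2A* (-0.68, 9 of 12), *CHD4* (-0.61, 8 of 12), *SMARCA4* (-0.73, 8 of 12), *KDM2A* (-0.53, 3 of 12) and *SMARCC1* (-0.52, 3 of 12) fell (log2FC). The count of 24 became 13 without Sal-exposed liver 6.

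Kinases of the MAP kinase cascade and their phosphatases rose in 11 of 41 cases and fell in 3. *MAPK9*, the kinase JNK2, ranged from 3.22 to 7.63 CPM in the Sal-exposed group (median 6.04) and from 0.646 to 2.63 CPM in the control group (median 2.01) (log2FC 1.55, SE 0.34, edgeR p-adj = 0.0114). *MAPK3*, the kinase ERK1, had a median of 41.1 CPM in Sal-exposed livers and 23.2 CPM in controls (log2FC 0.78, SE 0.16, edgeR p-adj = 0.00866). *DUSP10*, a phosphatase of JNK and p38, had a median of 13.2 CPM in Sal-exposed livers and 5.93 CPM in controls (log2FC 0.98, SE 0.21, edgeR p-adj = 0.0101). *TAOK1* (1.38), *MAP4K3* (0.94), *MAP4K5* (0.97), *MAP3K3* (1.92, 11 of 12), *MAP3K7* (0.59), *BRAF* (0.75), *MAP2K1* (0.59) and *DUSP16* (1.19) rose, and *MAP3K6* (-0.91, 11 of 12), *MAP2K2* (-0.996) and *DUSP4* (-1.32, 5 of 12) fell (log2FC). *MAP2K1* and *MAP2K2*, the close relatives that phosphorylate ERK, thus stood on opposite sides, and *MAP2K2* did not pass without Sal-exposed liver 1 (0.0751), Sal-exposed liver 3 (0.0804), Sal-exposed liver 5 (0.0874), Sal-exposed liver 6 (0.0909), control liver 1 (0.0662), control liver 4 (0.0699) or control liver 5 (0.0801).

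The chromatin modifiers had a median genomic span of 52626 bases, and the change in the liver went with span. The median span of upregulated genes was 40674.5 bases and that of downregulated genes 7745.5 bases, beside 15444 for all genes tested. In the decile of genes with the shortest spans the median log2FC was -0.26, and 1.25% of the genes rose and 9.49% fell at p-adj alone, whereas in the longest decile it was 0.26, with 12.7% up and 2.80% down at p-adj alone. By library, the longest decile exceeded the shortest by 0.05 to 0.68 in 5 Sal-exposed livers, on the log2(CPM + 1) scale relative to the mean of the 12 livers, and by -0.50 in Sal-exposed liver 2. The controls lay between -0.31 and -0.03. With offsets that take out the trend on span in each library, 361 genes were upregulated and 431 downregulated, 15 chromatin modifiers passed upward and 6 downward, and the list median was 0.17. *MED13L* (edgeR p-adj = 0.00476 with offsets), *INO80* (0.0096), *ASH1L* (0.00673), *NUP210* (0.00231) and *RBL1* (0.00956) passed with the offsets too, and so did *GC* (0.00555), *PIT54* (0.00901) and *C3* (0.017). The part of gene length in these results was not tested beyond the offsets.

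**Figure D4:**
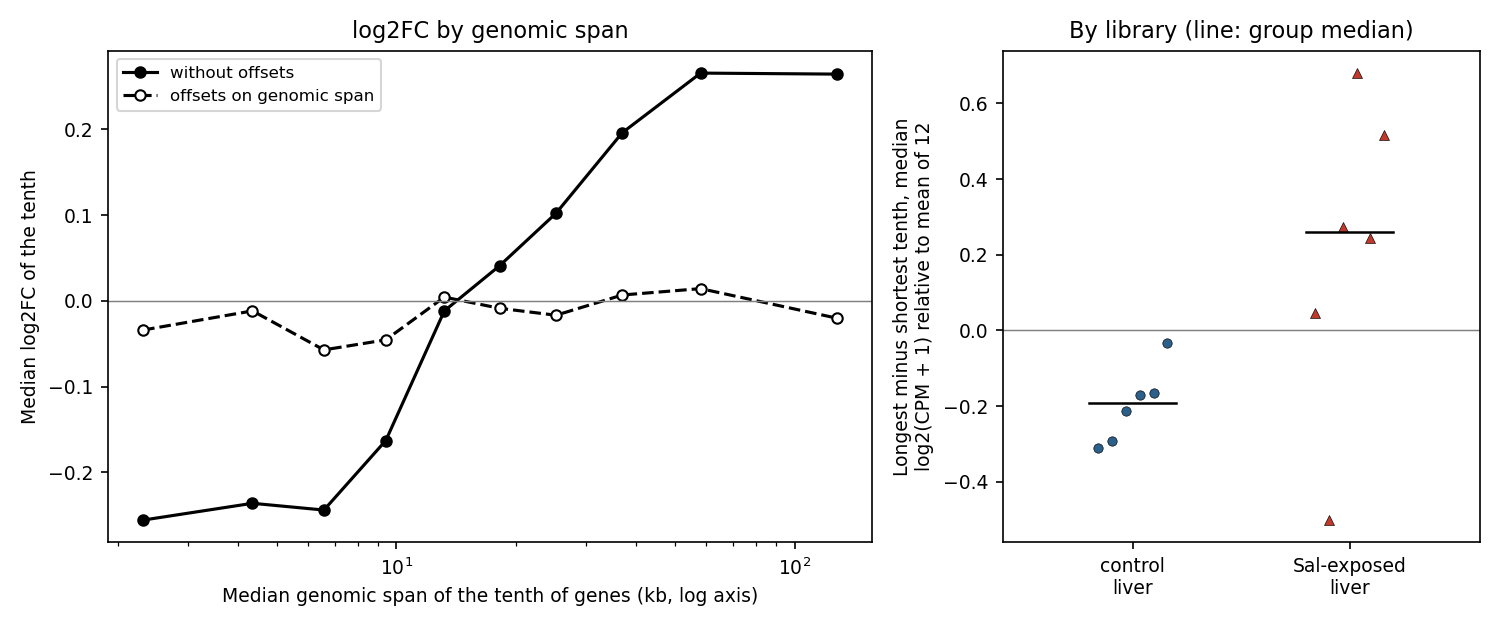
Left, median log2FC of each decile of the tested genes against the median genomic span of that decile (kb, log axis), without offsets (filled) and with offsets on span (open). Right, the difference between the longest and the shortest decile in each of the 6 control livers (blue circles) and 6 Sal-exposed livers (red triangles), with the group median as a line; the left curve climbs from -0.26 to 0.26, and Sal-exposed liver 2 lies below all controls at -0.50.

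**Figure D5:**
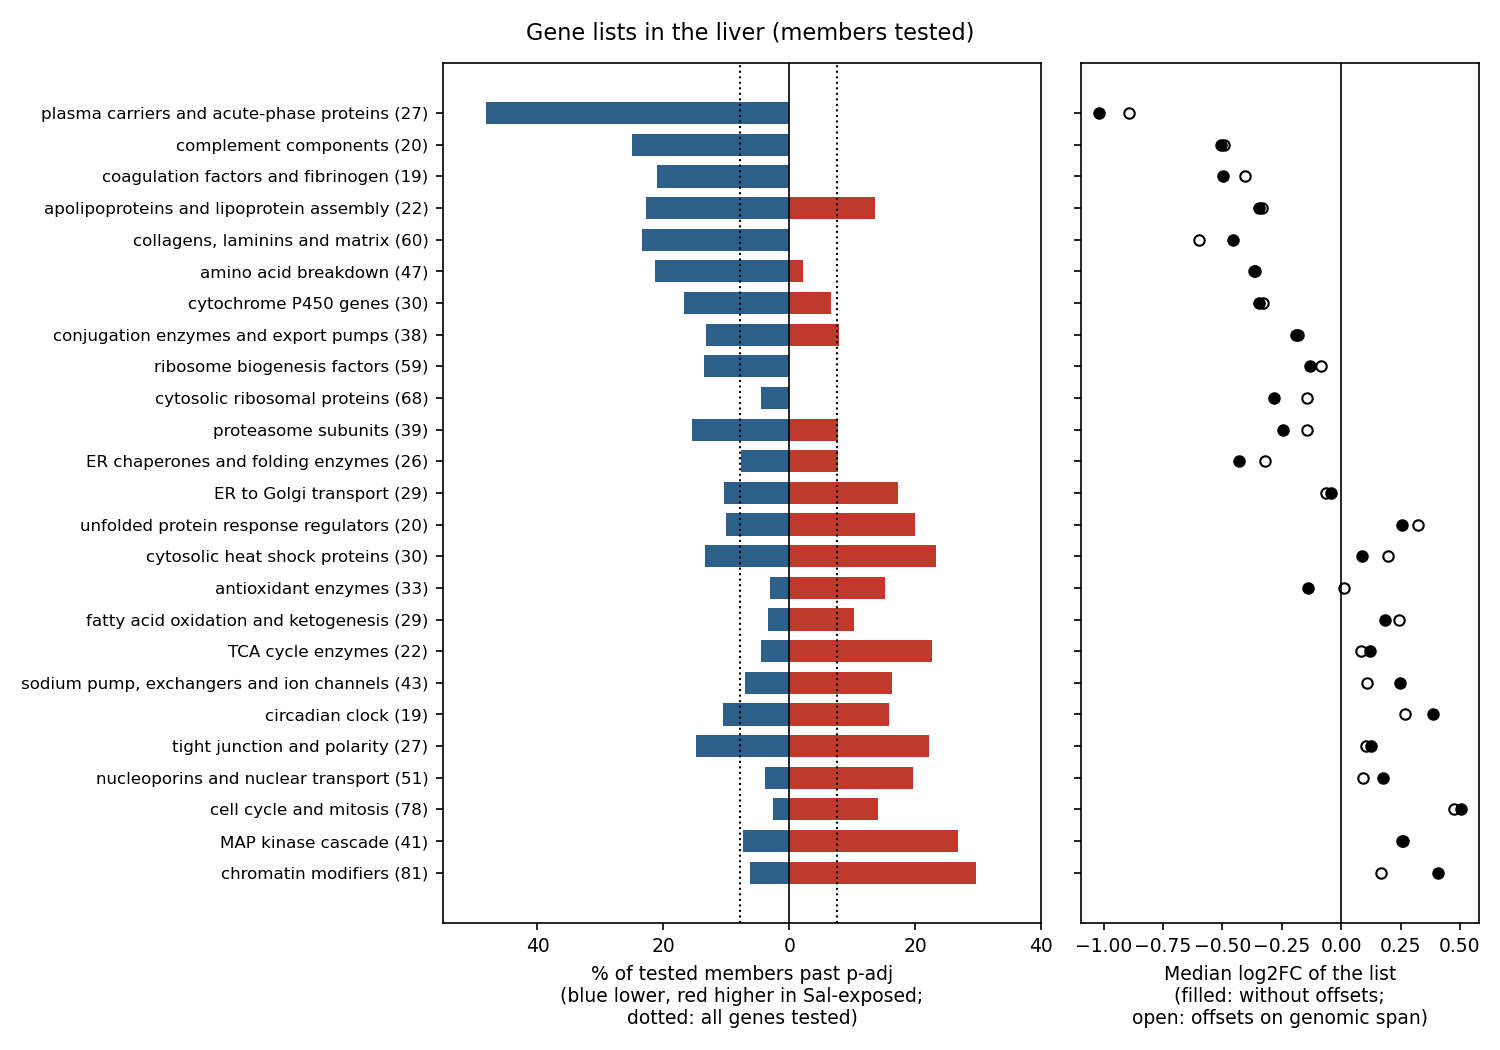
Left, percent of the tested members of each gene list shown (number of members in brackets) that passed at an edgeR p-adj of at most 0.05. Members lower in Sal-exposed livers are in blue, drawn to the left, and higher members in red, drawn to the right. Dotted lines mark 7.84% lower and 7.57% higher for all genes tested. Right, the median log2FC of each list without (filled) and with offsets on genomic span (open), which is lowest for plasma proteins at -1.02 and highest for cell cycle genes at 0.50.

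Because Sal carries sodium and potassium, 43 genes of the sodium pump, ion exchangers and channels were examined, of which 7 rose and 3 fell. *WNK1*, a kinase that senses chloride and cell volume, had a median of 50.4 CPM in Sal-exposed livers (39.9 to 71.9), against 28.7 CPM in control livers (16.99 to 33.1) (log2FC 1.01, SE 0.19, edgeR p-adj = 0.00704). It separated the groups without overlap. The calcium pumps *ATP2C1* (0.80), *ATP2B1* (0.75, 6 of 12) and *ATP2A2* (0.49, 4 of 12) rose, and the mitochondrial sodium-calcium exchanger *SLC8B1* (-0.70, 11 of 12) fell (log2FC). *ATP1B3*, a beta subunit of the sodium pump, rose (log2FC 0.69, SE 0.22, edgeR p-adj = 0.0425, 3 of 12). With the offsets on span, 2 genes of this list rose and 5 fell.

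A list of osmotic genes was added after values had been seen, so its counts, 5 up and 2 down of 21, support nothing. *NFAT5*, the transcription factor of the response to hypertonic stress, was measured at 1.82 to 10.7 CPM (median 5.22) with Sal and at 0.246 to 2.39 CPM (median 1.802) without (log2FC 1.85, SE 0.51, edgeR p-adj = 0.0272, 8 of 12). *SLC6A6*, the taurine transporter and a target of *NFAT5* in mammals, lay between 1.82 and 16.6 CPM (median 9.17) in the Sal-exposed livers and between 0 and 2.55 CPM (median 1.27) in the controls (log2FC 2.94, SE 0.67, edgeR p-adj = 0.0131). In both genes Sal-exposed liver 2 had the lowest value of its group. *SLC12A2*, the sodium-potassium-chloride cotransporter, was higher (log2FC 1.48, SE 0.48, edgeR p-adj = 0.0494, 3 of 12) and *AQP1* lower.

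Tight junction and polarity genes moved in both directions. The junction proteins *TJP3*, *CGN* (log2FC -1.19, SE 0.26, edgeR p-adj = 0.0119), *F11R* (log2FC -0.79, SE 0.17, edgeR p-adj = 0.0103) and *CLDN10* (log2FC -1.51, SE 0.45, edgeR p-adj = 0.037, 3 of 12) fell. The scaffold *TJP1* ranged from 8.53 to 36.1 CPM in the Sal-exposed group (median 21.3) and from 4.79 to 10.6 CPM in the control group (median 8.796) (log2FC 1.33, SE 0.29, edgeR p-adj = 0.0114). It rose, as did *CGNL1* (1.56) and the polarity genes *PARD6B* (1.33), *PATJ* (1.05, 9 of 12), *PRKCI* (0.71, 6 of 12) and *CRB2* (3.14, 3 of 12, log2FC), so that 6 of 27 were up and 4 down. *TJP1* and *TJP3*, paralogous scaffolds, therefore had opposite signs.

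Clock genes and early response genes were examined because they respond to feeding and handling. *PER2*, a repressor of the clock, had a median of 16.2 CPM in Sal-exposed livers (6.11 to 22.3), against 5.67 CPM in control livers (3.79 to 6.31) (log2FC 1.44, SE 0.28, edgeR p-adj = 0.00754), with only Sal-exposed liver 2 inside the control range. *RORA* rose (log2FC 1.75, SE 0.46, edgeR p-adj = 0.0229, 11 of 12), at levels no higher than 2.79 CPM, and *NR1D1*, its competitor at the same sites, fell (log2FC -1.18, SE 0.32, edgeR p-adj = 0.0246, 8 of 12). *TEF*, a clock output factor, fell (log2FC -0.50, 4 of 12). *CLOCK* (0.59, edgeR p-adj = 0.0529), *ARNTL* (0.23, p-adj = 0.431), *CRY1* (0.39, p-adj = 0.164) and *PER3* (-0.46, p-adj = 0.207) did not pass, and the hour of sampling of each bird is not given in the sources used here. *SOCS3*, an inhibitor of cytokine signalling, was measured at 21.3 to 35.3 CPM (median 26.8) with Sal and at 6.49 to 20.3 CPM (median 12.2) without (log2FC 1.18, SE 0.27, edgeR p-adj = 0.0121). *GADD45B*, a stress gene, lay between 24.2 and 57.7 CPM (median 41.3) in the Sal-exposed livers and between 65.6 and 237 CPM (median 102) in the controls (log2FC -1.67, SE 0.32, edgeR p-adj = 0.00689). Neither overlapped. Of the 27 early response genes 4 rose and 1 fell in all.

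Genes of protein synthesis and turnover passed in both directions. Ribosome biogenesis had 8 of 59 members down (13.6%, beside 7.84% of all genes) and none up. *BOP1* of the large subunit ranged from 15.4 to 36.3 CPM in the Sal-exposed group (median 23.9) and from 35.98 to 93.3 CPM in the control group (median 57.9) (log2FC -1.28, SE 0.26, edgeR p-adj = 0.00824). *UBTF*, the transcription factor of ribosomal RNA genes, had a median of 50.01 CPM in Sal-exposed livers and 80.2 CPM in controls (log2FC -0.67, SE 0.17, edgeR p-adj = 0.0185, 11 of 12). The number of members down was 1 without Sal-exposed liver 6, 2 without Sal-exposed liver 5, 3 without Sal-exposed liver 1, Sal-exposed liver 3 or control liver 4, 5 without control liver 1 or control liver 5 and 16 without Sal-exposed liver 2. Of 68 cytosolic ribosomal protein genes 3 were lower (4.41%, below the share of all genes), *RPL4* (-0.82, 10 of 12) and *RPL14* (-1.01, 4 of 12) among them, and of 59 translation factors 7 were higher and 8 lower, among them *EIF4B* (-0.86, 11 of 12), *EIF4A3* (-0.67) and *EIF3L* (-0.67) lower and *EIF4H* (0.60) higher (log2FC). With offsets on span 2 translation factors were higher and 9 lower. With 1 library left out, the number higher went from 1 (without Sal-exposed liver 3 or Sal-exposed liver 6) to 9 (without Sal-exposed liver 2) and the number lower from 2 (without Sal-exposed liver 6) to 15 (without Sal-exposed liver 2). Proteasome subunits counted 3 up and 6 down of 39. *PSME4* (1.08, 8 of 12) and *PSME3* (0.54), alternative activators, and the deubiquitinase *PSMD14* (0.57) rose, while *PSMD8* (-0.87) and *PSMD7* (-0.64, 9 of 12) of the regulatory particle fell (log2FC).

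Splicing genes gave 6 up and 6 down of 41. *SRSF2*, an SR protein, had a median of 22.9 CPM in Sal-exposed livers (13.3 to 26.96), against 5.84 CPM in control livers (1.29 to 8.63) (log2FC 1.95, SE 0.35, edgeR p-adj = 0.00544). *SNRNP200* (log2FC -1.03, SE 0.19, edgeR p-adj = 0.00551) and *PRPF8* (log2FC -0.86, SE 0.17, edgeR p-adj = 0.00822), which sit together in the spliceosome's core, fell without overlap between the groups, and *HNRNPA2B1* rose likewise (log2FC 0.79, SE 0.16, edgeR p-adj = 0.00783).

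The remaining lists are given more briefly. Bile acid synthesis and transport had 3 of 14 genes up (21.4%) and 3 down (21.4%), beside 7.57% and 7.84% of all genes. Both counts were 0 without Sal-exposed liver 6. *SLC51A*, a bile acid exporter, was lower (log2FC -0.97, SE 0.25, edgeR p-adj = 0.0203, 11 of 12) and *KLB*, the co-receptor of the bile acid signal FGF19, higher (log2FC 1.24, SE 0.36, edgeR p-adj = 0.0313, 5 of 12). Gluconeogenesis and glycogen had 2 up and 1 down of 23, where *PGM2* fell (log2FC -0.74, SE 0.15, edgeR p-adj = 0.00808). DNA repair had 3 up and 1 down of 56, among them *BRCA1* (1.40, 9 of 12) and *ATM* (0.87, 8 of 12) up and *RAD51B* (-1.04, 10 of 12) down (log2FC). Insulin and IGF signalling had 4 up and 1 down of 42, but 3 up and 4 down with offsets on span, with *SGK3* (log2FC 1.05, SE 0.20, edgeR p-adj = 0.00702) and *GRB10* (log2FC 0.83, SE 0.17, edgeR p-adj = 0.00845) up and *IGFBP4* (log2FC -1.10, SE 0.27, edgeR p-adj = 0.0185, 11 of 12) down. The groups did not overlap in *SGK3*, *GRB10*, *PGM2* and *RAD51B*. Of 26 hepatic transcription factors 1 rose (*GATA4*, 0.80, 3 of 12) and 2 fell (*KLF15*, -0.95, 6 of 12, and *TEF*), and of 29 interferon-stimulated genes *DTX3L* (0.80) and *IFIH1* (0.67, 10 of 12) rose (log2FC), within a list median of 0.52.

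Counts of other lists also depended on single birds, and with 1 library left out they took the following ranges. The number that rose went from 2 (without Sal-exposed liver 6) to 6 (without Sal-exposed liver 2) for TCA cycle enzymes, from 3 (without Sal-exposed liver 3, Sal-exposed liver 5 or Sal-exposed liver 6) to 5 (without Sal-exposed liver 2, control liver 2 or control liver 3) for antioxidant enzymes and from 0 (without Sal-exposed liver 5 or Sal-exposed liver 6) to 3 (without Sal-exposed liver 2) for lipogenesis. It went from 2 (without Sal-exposed liver 6) to 6 (without control liver 3) for regulators of the unfolded protein response, from 3 (without Sal-exposed liver 6 or control liver 4) to 5 (with several libraries left out in turn) for transport from the ER to the Golgi and from 3 (without Sal-exposed liver 6 or control liver 5) to 7 (without Sal-exposed liver 2 or control liver 2) for cytosolic heat shock genes. It went from 6 (without Sal-exposed liver 6 or control liver 4) to 12 (without Sal-exposed liver 2) for nuclear pore and transport genes, from 2 (without Sal-exposed liver 6 or control liver 4) to 9 (without Sal-exposed liver 2) for ion pumps, exchangers and channels, from 3 (without Sal-exposed liver 6, control liver 4 or control liver 5) to 8 (without Sal-exposed liver 2) for tight junction and polarity genes and from 2 (without Sal-exposed liver 3, Sal-exposed liver 5 or Sal-exposed liver 6) to 9 (without Sal-exposed liver 2) for insulin and IGF signalling. The number that fell went from 0 (with several libraries left out in turn) to 8 (without Sal-exposed liver 2) for conjugation enzymes, from 2 (without Sal-exposed liver 5 or Sal-exposed liver 6) to 6 (without control liver 6) for apolipoproteins and lipoprotein assembly, from 1 (without Sal-exposed liver 3, Sal-exposed liver 6 or control liver 4) to 9 (without Sal-exposed liver 2) for proteasome subunits, from 3 (without Sal-exposed liver 5) to 6 (with several libraries left out in turn) for fibroblast markers and from 2 (with several libraries left out in turn) to 5 (without control liver 6) for thrombocyte markers. Splicing genes went from 3 (without Sal-exposed liver 6, control liver 4 or control liver 5) to 7 (without Sal-exposed liver 2) upward and from 3 (without Sal-exposed liver 5 or Sal-exposed liver 6) to 7 (without control liver 2) downward.

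*ADCY7* and *KLHL11* were among the genes chosen for RT-qPCR by the study. There *ADCY7* was significantly upregulated, whereas *KLHL11* showed no correlation with the RNA-seq data. Both were near 0 in the controls, with medians of 0 and 0.197 CPM, so the size of their log2FC (3.88 and 3.48) depends on the prior count. Their edgeR p-adj was 0.0244 and 0.0203, and they passed in 9 and 11 of 12 fits with 1 library left out.

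The same contrast was made in the heart of 6 Sal-exposed and 6 control birds, and an interaction term over 24 libraries tested whether it differed between liver and heart. By the study's description, hearts and livers were dissected from the 6 birds killed per group. The fit held no term for the bird, so its p-values treat the heart and liver of a bird as independent. Of the 952 genes called in the liver, 687 differed from the heart contrast at p-adj of at most 0.05, a count given as a description because the genes were chosen by their liver contrast. The liver log2FC minus the heart log2FC was 3.03 for *NUP210*, 2.67 for *GFRA3* and 1.45 for *NNT*. It was -1.998 for *PEAR1*, -1.84 for *TJP3* and -2.56 for *KDELR3*. All 6 passed the interaction test, with edgeR p-adj between 0.000304 and 0.00261, and their heart log2FC lay between -0.33 and 0.14.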

How the data were processed

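RNA-seq libraries of 12 livers and 12 hearts, made with an mRNA library kit per the labels, were analysed. The deposited table holds raw counts per gene, which the authors made by trimming with fastp, aligning to GRCg7b with STAR and counting with RSEM; program versions and the strand setting of the counting are not given in the sources used here. It lists 15051 genes and 36 sample columns, of which 24 matched the labels and 12 were not used. Deposited comparison tables hold fold changes, p-values and adjusted p-values of the authors from DESeq2, and these values were not used. Gene symbols (for 11779 genes), positions and biotypes were read from the annotation columns of the deposited liver comparison. The genomic spans were taken from these positions.

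Genes were filtered with filterByExpr (minimum count 10, minimum total 15) and scaled by TMM. Sal-exposed and control livers were compared with edgeR 4.0.16 (R 4.3.3, limma 3.58.1) by the quasi-likelihood test over the 12 livers, with p-values adjusted over all 13587 genes by Benjamini-Hochberg. The liver and heart contrasts were compared by an interaction term over 24 libraries (14632 genes), without a term for the bird. Library properties were compared by exact permutation tests. Alternatives used DESeq2 1.42.0, sva 3.50.0, other scalings and filters, offsets on genomic span, a replicate block and each library left out. The procedure was tested on simulated independent counts. These held no trend on genomic span and no outlying birds, so the test does not cover such features of the real livers. The edgeR p-values set the difference between the groups against the spread between birds within a group. They do not cover differences between pens.

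The genes and gene lists were chosen with earlier results of these data known. Named are the 10 genes with a symbol and the lowest p in each direction, the 10 called genes with a symbol and the highest mean CPM, genes the study names, up to 4 members per list with the lowest p (8 for cell cycle, clock and ER lists), and further members needed to describe a list. Some list members are counted but not reported by name here.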

Additional observations from a re-analysis of the deposited data

Results flagged for a closer look

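Single livers lay far from the others of their group by Dixon's criterion at 95%. It was applied to 70 groups of values and flags about 1 in 20 groups by chance. Sal-exposed liver 4 accounted for 6 of the 8 cases. It had 14297 genes with a count, where the other 5 Sal-exposed livers had 14544 to 14664, and 30.4% of its counts were mitochondrial. Its 20 genes with the most counts took 51.0%, against 28.4% to 31.7% in the others of its group. It was low in *CROCC* at 5.33 CPM, and high in *GM2A* at 232 CPM and in *ADH1C* at 2104 CPM. *EHD2* was highest in Sal-exposed liver 1, at 22.1 CPM, and among the controls in control liver 5, at 96.1 CPM, and the groups did not overlap.

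The Sal contrast of the liver differed from that of the heart in 2373 of 14632 genes in the edgeR interaction test (p-adj of at most 0.05), which held no term for the bird. For the 6 genes described in full at both ends of the liver ranking, the liver log2FC minus the heart log2FC was 3.03 for *NUP210*, 2.67 for *GFRA3*, 1.45 for *NNT*, -1.998 for *PEAR1*, -1.84 for *TJP3* and -2.56 for *KDELR3*. These genes were chosen by their liver contrast.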

How the results depend on the processing

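The count of 952 DE genes rose to 1464 with all 24 libraries in one fit and to 1482 with surrogate variables in DESeq2, and ranged from 504 without Sal-exposed liver 6, with 607 without Sal-exposed liver 5, to 1296 without Sal-exposed liver 2. The count of 2093 at p-adj alone became 3654 with all 24 libraries, 4172 with surrogate variables in DESeq2 and 3862 with 5 surrogate variables in edgeR, an alternative chosen after seeing the data. With 1 library left out it ranged from 896 (without Sal-exposed liver 6) to 2833 (without Sal-exposed liver 2), and it was 1214 and 1106 without Sal-exposed livers 3 and 5 and 1204 and 1367 without control livers 4 and 5. The cause of these shifts was not tested.

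Of the DE genes 47.7% were upregulated, and this share was 58.0% with upper-quartile scaling, 59.1% with all 24 libraries, 59.9% with surrogate variables in DESeq2, and 60.3%, 61.6% and 58.9% with 2, 3 and 5 surrogate variables in edgeR (1097, 1205 and 1147 DE genes). DESeq2 gave 1342 DE genes, the mitochondrial share as a covariate 791, offsets on span 792, no filter 943, and 1 and 4 surrogate variables 933 and 811. The edgeR fits with 1, 2 and 4 surrogate variables, like that with 5, were chosen after seeing the data. Of the 387 named genes 331 passed in the main fit. Of these 331, 61 no longer passed with the mitochondrial covariate, 81 with the offsets, 22 with upper-quartile scaling and 130 with 4 surrogate variables. Among the 387 named genes 1 changed sign and passed: the log2FC of PPARA was 0.50 (edgeR p-adj = 0.0475) with 2 surrogate variables, against -0.28 without surrogate variables.

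With the replicate number as a block, 563 genes were DE (256 up, 307 down) and 1009 passed p-adj alone. Of the 331 named genes that passed in the main fit, 154 no longer passed. The correlation of same-numbered livers lay between -0.077 and 0.117, and 1 of 6 correlated best with its own number. These correlations cannot settle whether same-numbered livers shared a pen or batch, which the sources used here do not give.

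The difference in the share of the top 20 genes, -10.8 percentage points, ranged from -14.3 (without Sal-exposed liver 4) to -9.02, with -13.5 without control liver 2, and that in rRNA share, -0.424, from -0.549 (without control liver 1) to -0.312. The 6 birds per group, and genes under about 1 CPM, limit the precision.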

Other observations

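On the Z chromosome 57 of 612 genes tested rose and 17 fell, with a median log2FC of 0.26, and on the W chromosome none of 62 rose and 2 fell in edgeR. Of 1092 long non-coding RNA genes tested 28 rose and 40 fell, with a median log2FC of -0.06. Over all genes tested 7.57% rose and 7.84% fell, with a median log2FC of -0.01. Long non-coding RNA genes and W genes lay below these shares in both directions. Z genes lay above the share that rose and below the share that fell.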
